A study of Mus musculus with 9 samples.

Results

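10 genes of the IL-17 and IL-20 cytokine families and their receptors were followed in mouse skin. They are the cytokine genes Il17a, Il17f, Il19, Il20, Il24 and Il23a and the receptor genes Il17ra, Il17re, Il20rb and Il22ra1. They were chosen by symbol in a table of 54532 genes, and all 10 members were found there, each as 1 gene. RNA of skin biopsies was sequenced in 3 groups of 3 libraries, all from wild-type mice: healthy controls, mice given bleomycin, and mice given bleomycin and topical nitrate, called nitrate below. Bleomycin is a DNA-breaking antibiotic injected in mice to bring about a fibrosis like that of systemic sclerosis skin, and nitrate can give rise to nitric oxide in tissue. Nothing used here states strain, age, doses, times or how many animals were sampled. The p-values therefore describe the spread of these libraries, which may in part be technical.

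IL-17A and IL-17F are secreted mainly by lymphocytes. They act on keratinocytes and fibroblasts through a receptor of the chains encoded by Il17ra and Il17rc. IL-17C uses Il17ra with Il17re. IL-23, whose own subunit is encoded by Il23a, sustains the lymphocytes that make IL-17. IL-19, IL-20 and IL-24 are made by keratinocytes and myeloid cells and signal to the epidermis. All of them use a receptor of the chains encoded by Il20ra and Il20rb, and IL-20 and IL-24 also use Il22ra1 with Il20rb. Both families are known for the thickened epidermis and the neutrophil influx of psoriasis, and the IL-20 family also for skin wound repair.

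The libraries held 15804050 to 18352592 reads recovered from the deposited FPKM values (fragments per kilobase of gene, scaled to library size). Keratinocyte genes were abundant throughout, with Krt14, a keratin of the basal epidermis, at 415 FPKM or more in every library labelled skin. Mitochondrial genes took 6.61% to 8.02% of the reads in control and 2.84% to 4.49% in the 6 other libraries. Genes of the growing hair follicle set libraries of 1 group apart, with a summed level of 3.65 to 2783 FPKM in control, 51.2 to 4714 in bleomycin and 2263 to 14879 in nitrate. Control 1 and bleomycin 1 were the libraries lowest in these genes. A gene was tested with limma on log2(FPKM + 1) if 3 or more libraries reached 1 FPKM, which 14645 genes did. Differences below are on that scale with their standard error (SE), and each adjusted p is limma's, corrected over those genes by the method of Benjamini and Hochberg. In bulk tissue, fewer cells of a type and less RNA per cell cannot be told apart.

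Il19, a cytokine gene of keratinocytes and myeloid cells, was high in bleomycin skin and near 0 elsewhere (ENSMUSG00000016524, chromosome 1, 130932656 to 130940115, minus strand, mm10). It stood at 0, 0 and 0.10 FPKM in control 1, 2 and 3, at 3.36, 3.17 and 1.28 in bleomycin 1, 2 and 3, and at 0.142, 0 and 0 in nitrate 1, 2 and 3. Every bleomycin library lay above every other library, and bleomycin 3 was the lowest of its group. In reads, the control libraries held 2 in all, the bleomycin libraries 152 and the nitrate libraries 3. Scaled for library size, the reads of bleomycin were 73.4 times those of control, with an exact 95% interval of 20.0 to 611 that covers counting error only, and 55.1 times those of nitrate, with an interval of 18.5 to 269.9.

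The rise of Il19 with bleomycin passed limma's test (1.75 ± 0.25 SE, n = 3 per group, adjusted p = 0.00866). The lower value with nitrate than with bleomycin did not pass (-1.73 ± 0.25, adjusted p = 0.0619). Between nitrate and control the difference was 0.02, with a 95% interval of -0.56 to 0.60. Il19 entered the test only because the 3 bleomycin libraries reached 1 FPKM, so the filter fixed the direction of its differences from control and from nitrate, with or without bleomycin 3. Without both control 1 and bleomycin 1 the rise no longer passed (1.56, adjusted p = 0.0787), and without bleomycin 3 the difference of nitrate from bleomycin passed (-2.03, adjusted p = 0.0292).

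Il19 had the largest tested difference of the 10 genes, and Il17a and Il17f, described below, had no read in any control library. The 250 bases before the RefSeq gene start of these 3 genes (build GRCm38.p6, the assembly of mm10) are shown, 5′ to 3′ on the strand of the gene. Il24 had no control read either. RefSeq promoters were matched for 7 of the 10 members, and not for Il24, Il17ra and Il23a. Capitals mark matches on either strand to 3 motifs, which were TGANTCA for AP-1, GGG and CC with any 5 bases between them for NF-kappa-B and TTCNNNGAA for STAT factors.
Il19, chr1:130940116-130940365, minus strand: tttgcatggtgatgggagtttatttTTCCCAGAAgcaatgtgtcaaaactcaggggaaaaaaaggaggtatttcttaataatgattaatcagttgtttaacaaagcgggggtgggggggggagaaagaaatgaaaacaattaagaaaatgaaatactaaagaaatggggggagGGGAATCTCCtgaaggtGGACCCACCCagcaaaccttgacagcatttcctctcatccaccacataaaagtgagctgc
Il17a, chr1:20730655-20730904, plus strand: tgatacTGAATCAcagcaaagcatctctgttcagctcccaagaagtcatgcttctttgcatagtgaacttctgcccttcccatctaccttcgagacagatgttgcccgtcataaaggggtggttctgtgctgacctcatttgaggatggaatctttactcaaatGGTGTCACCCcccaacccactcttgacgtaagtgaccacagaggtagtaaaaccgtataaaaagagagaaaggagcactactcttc
Il17f, chr1:20784271-20784520, minus strand: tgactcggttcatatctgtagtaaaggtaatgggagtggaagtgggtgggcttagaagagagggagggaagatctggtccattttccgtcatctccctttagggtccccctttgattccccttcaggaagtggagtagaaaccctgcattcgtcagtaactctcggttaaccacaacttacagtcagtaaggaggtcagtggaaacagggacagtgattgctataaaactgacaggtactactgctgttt

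The window of Il19 held 1 match to the STAT motif and 2 to the NF-kappa-B motif, and none to the AP-1 motif. That of Il17a held 1 match each to the AP-1 and NF-kappa-B motifs and none to the STAT motif, and that of Il17f held no match to any of the 3. Over the same 250 bases of 32851 promoters, 7.02% held the STAT motif, 45.8% the NF-kappa-B motif and 6.75% the AP-1 motif. A match is a description of letters and shows no binding. The RefSeq start of Il17f lies within the longer gene model of the deposited table, and 26 bases of its window are annotated as exon.

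Il24, the neighbour of Il19 on chromosome 1 and a cytokine gene induced in wounded epidermis, was high in only part of the bleomycin group (ENSMUSG00000026420, 130882074 to 130887454, minus strand). It was at 0 in the 3 control libraries, at 3.23, 3.12 and 0.164 FPKM in bleomycin 1, 2 and 3, and at 0.865, 0 and 0 in nitrate 1, 2 and 3. These values came from 73, 75 and 4 reads in bleomycin 1, 2 and 3 and from 22 reads in nitrate 1. Bleomycin 3 thus lay below nitrate 1, and the bleomycin and nitrate groups overlapped. The bleomycin mean was at least 16.5-fold higher than control, taking as the level of each control library the 3 reads that a count of 0 allows. Il24 reached 1 FPKM in 2 libraries and was not tested by limma on FPKM. With limma's voom method on the recovered reads, which took genes with at least 10 reads in at least 3 libraries, it did not pass between bleomycin and control (adjusted p = 0.147) or between nitrate and bleomycin (adjusted p = 0.362).

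Il20, whose product acts on epidermal keratinocytes, lies between Il24 and Il19 and did not share their pattern. The gap to Il24 is 19530 bases and that to Il19 21204 bases, and all 3 genes are on the minus strand. Il20 stood at 0.110, 0.602 and 0.485 FPKM in control 1, 2 and 3, at 0, 1.02 and 0.191 in bleomycin 1, 2 and 3, and at 0.735, 0.368 and 0.0886 in nitrate 1, 2 and 3. The 3 groups overlapped, and their total reads were 24 in control, 25 in bleomycin and 26 in nitrate. Scaled for library size, bleomycin reads were 1.01 times those of control, with an exact 95% counting interval of 0.551 to 1.84. Il20 was not tested on FPKM, and by voom it did not pass (adjusted p = 0.683 for bleomycin minus control).

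**Figure D1:**
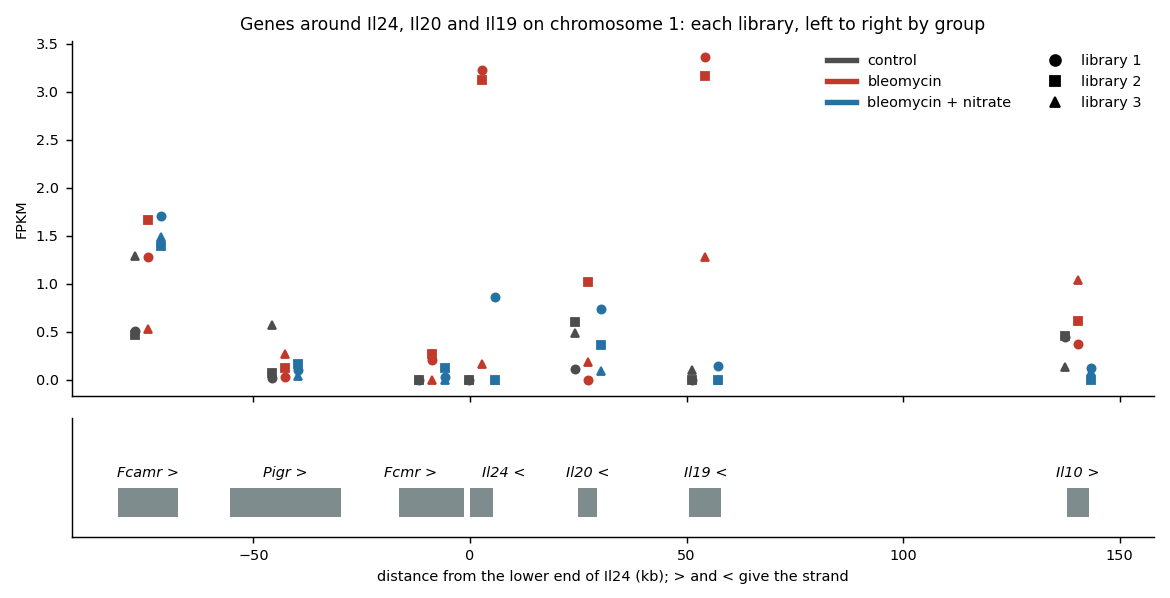
Each library's FPKM (upper axis, colours for groups, shapes for libraries) over the map of protein-coding genes within 100 kb of the stretch from Il24 to Il19, with distance from the lower end of Il24 in kb (lower axis). Bleomycin 1 and 2 stand above 3 FPKM at Il24 and at Il19, while Il20 between them stays at or below 1.02 FPKM in every library.

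Of the other genes near this stretch, Fcamr, an IgA and IgM receptor gene, had 0.758 ± 0.465 FPKM in control, 1.16 ± 0.574 in bleomycin and 1.53 ± 0.161 in nitrate (SD, n = 3). Il10, the gene of an anti-inflammatory cytokine of the same wider family, had 0.345 ± 0.185 FPKM in control, 0.677 ± 0.336 in bleomycin and 0.0683 ± 0.0632 in nitrate (SD, n = 3). Fcmr, an IgM receptor gene next to Il24, had at most 0.266 FPKM in any library. Of the ligands of the family outside the 10 genes, Il22, a lymphocyte cytokine gene that acts on epithelium, had 7 reads in bleomycin 1, 1 read in nitrate 2 and none elsewhere, and Iltifb, a copy of Il22, was listed at 0 in every library.

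In control skin the receptor genes of the IL-20 family were measured at higher FPKM than their ligands. Il20rb, the chain shared by the receptors of IL-19, IL-20 and IL-24, was lowest in bleomycin skin (ENSMUSG00000044244, chromosome 9, 100457719 to 100486788). It stood at 12.9, 13.5 and 21.7 FPKM in control 1, 2 and 3, at 10.4, 10.1 and 10.3 in bleomycin 1, 2 and 3, and at 13.4, 18.6 and 14.1 in nitrate 1, 2 and 3. Every bleomycin library lay below every other library, while control and nitrate overlapped. Neither difference passed limma's test (-0.56 ± 0.20 SE, adjusted p = 0.123 for bleomycin minus control; 0.52 ± 0.20, adjusted p = 0.223 for nitrate minus bleomycin), and neither passed in any of 19 alternatives. The size of the first depended on control 3, without which it was -0.33.

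Il22ra1, the chain that pairs with Il20rb for IL-20 and IL-24 and with Il10rb for IL-22, showed no order of the groups (ENSMUSG00000037157, chromosome 4, 135728172 to 135752140). It stood at 6.26, 4.95 and 8.78 FPKM in control 1, 2 and 3, at 6.81, 7.26 and 5.12 in bleomycin 1, 2 and 3, and at 5.32, 5.57 and 4.85 in nitrate 1, 2 and 3. All groups overlapped. The difference of bleomycin from control was -0.03, with a 95% interval of -0.47 to 0.40, and that of nitrate from bleomycin was -0.23, with an interval of -0.67 to 0.20 (adjusted p = 0.933 and 0.561 by limma).

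A receptor gene outside the 10, Il20ra, was lower in both bleomycin groups than in control. Il20ra, the chain that binds IL-19, IL-20 and IL-24 together with Il20rb, stood at 5.33, 3.92 and 7.60 FPKM in control 1, 2 and 3, at 1.24, 1.78 and 1.33 in bleomycin 1, 2 and 3, and at 1.26, 1.12 and 0.931 in nitrate 1, 2 and 3. Every control library lay above every other library, and the bleomycin and nitrate groups overlapped. Il20ra fell with bleomycin (-1.40 ± 0.20 SE, limma adjusted p = 0.00864) and was lower than control with nitrate as well (-1.62 ± 0.20, adjusted p = 0.0112). Nitrate and bleomycin differed by -0.22 ± 0.20 (adjusted p = 0.615). Without both control 1 and bleomycin 1 these calls were lost (adjusted p = 0.0789 and 0.0671), with differences of the same sign, and that of nitrate also with the hair follicle covariate (0.0575).

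Of the 5 receptor genes of this family, all tested, 0 rose and 1 fell with bleomycin, with a median difference of -0.56 against 0.01 over all genes. In that comparison 4.74% of all tested genes were called higher and 3.69% lower. Il22ra2, the gene of a secreted decoy that binds IL-22, had 2.02 ± 0.408 FPKM in control, 0.546 ± 0.572 in bleomycin and 0.498 ± 0.367 in nitrate (SD, n = 3) and did not pass (adjusted p = 0.0615 for bleomycin minus control). Il10rb, the chain shared with the IL-10 and IL-22 receptors, had 4.80 ± 1.05 FPKM in control, 7.91 ± 0.875 in bleomycin and 4.93 ± 1.44 in nitrate and did not pass either (adjusted p = 0.103). Ordered by control level, Il20rb came first with 16.0 ± 4.96 FPKM, above Il22ra1 with 6.66 ± 1.94, Il20ra with 5.62 ± 1.86 and Il10rb, of which neighbours lay within their SDs, and Il22ra2 came last.

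**Figure D2:**
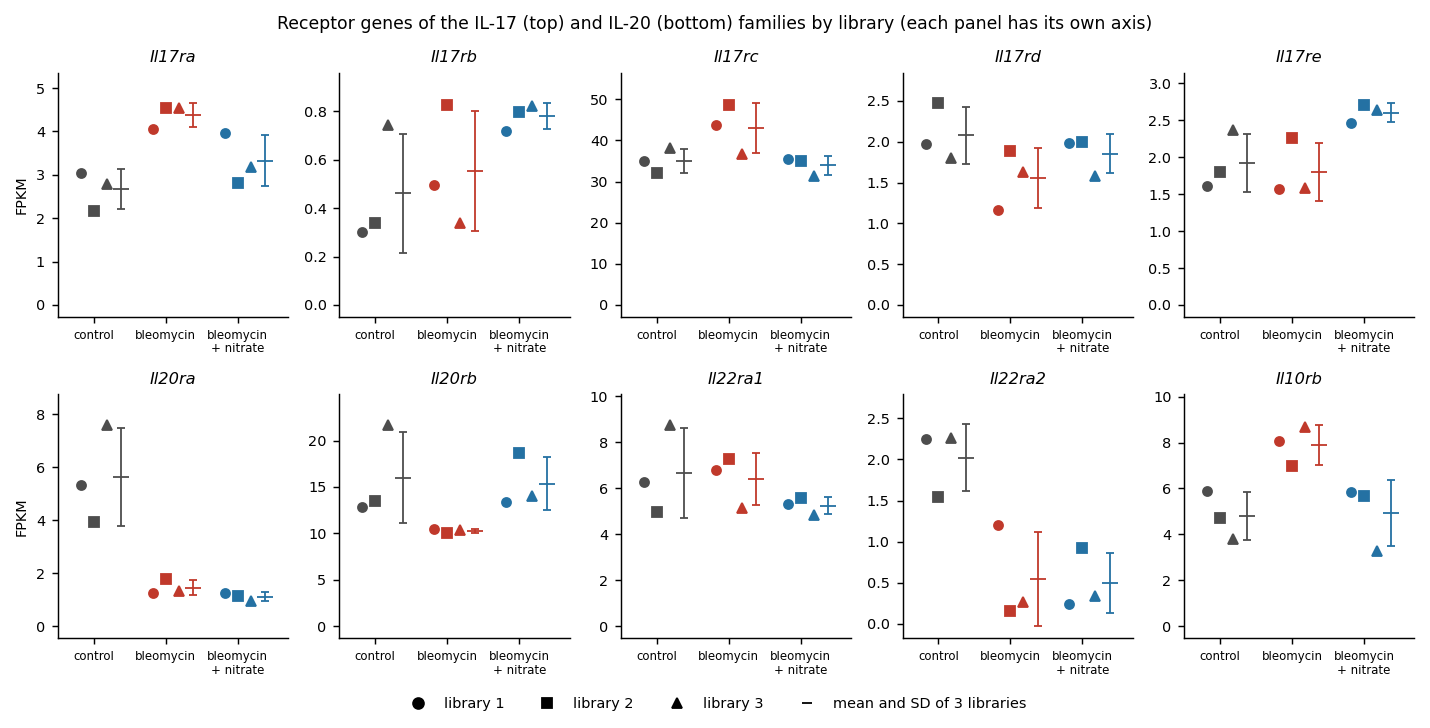
FPKM of the receptor genes of the IL-17 family (upper row) and the IL-20 family (lower row) in each library, with the mean and SD of 3 libraries beside the points, each panel on its own axis. Il20ra lies between 3.92 and 7.60 FPKM in control and at or below 1.78 in the 6 other libraries, and Il20rb between 10.1 and 10.4 FPKM in bleomycin.

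The genes of IL-17A and IL-17F were read in both bleomycin groups and not in control, at very low levels. Il17a (ENSMUSG00000025929, chromosome 1, 20730905 to 20734496, plus strand) had no reads in control, 1, 0 and 6 reads in bleomycin 1, 2 and 3, and 0, 12 and 1 reads in nitrate 1, 2 and 3, or at most 0.559 FPKM. Il17f (ENSMUSG00000041872, chromosome 1, 20777146 to 20790617, minus strand) had no reads in control, 10, 4 and 21 reads in bleomycin, and 2, 28 and 8 reads in nitrate. Its levels were 0.303, 0.114 and 0.589 FPKM in bleomycin 1, 2 and 3, compared with 0.0539, 0.756 and 0.208 in nitrate 1, 2 and 3. Bleomycin 3 and nitrate 2 were the highest libraries of their groups in both genes, which lie 42649 bases apart.

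Il17f had reads in each library of both groups, which overlapped. Nitrate 1, with 2 reads, lay below the 3 reads that a count of 0 allows in a control library. The mean of Il17f was at least 3.72-fold higher than control with bleomycin and at least 3.76-fold higher with nitrate, at the level of 3 reads per control library. The bounds were 2.31-fold without bleomycin 3 and 1.45-fold without nitrate 2. The bleomycin mean of Il17a lay below that level, so no fold is given. Neither gene reached 1 FPKM in any library and neither was tested on FPKM. By voom on the recovered reads Il17f did not pass between bleomycin and control (adjusted p = 0.0732) or between nitrate and control (adjusted p = 0.0863), and Il17a had too few reads to enter. Between bleomycin and nitrate, the total reads of Il17f were 35 and 38, a ratio of 1.0 with an exact 95% counting interval of 0.614 to 1.63.

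Il23a, which encodes the subunit that sets IL-23 apart from IL-12, was near the limit of detection (ENSMUSG00000025383, chromosome 10, 128296139 to 128298752). Its reads numbered 5, 0 and 3 in control, then 4, 16 and 3 in bleomycin 1, 2 and 3, followed by 4, 14 and 3 in nitrate 1, 2 and 3, so that its highest level was 0.411 FPKM. Scaled for library size, its reads with bleomycin were 2.78 times those of control, with an exact 95% counting interval of 1.2 to 7.18, and those with nitrate 2.33 times, with an interval of 0.992 to 6.09. Bleomycin 2 and nitrate 2 were high and the groups overlapped. No gene of IL-23 or its receptor was tested: Il12b, the subunit shared with IL-12, Il23r and Il12rb1 stayed at or below 0.734 FPKM in every library.

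Of the other IL-17 ligands, Il17d, which is made by many tissues, was the only 1 tested of the 6, with 2.90 ± 0.243 FPKM in control, 3.69 ± 0.947 in bleomycin and 5.71 ± 1.69 in nitrate (SD, n = 3). It was higher in each nitrate library than in control, and the difference did not pass (0.76 ± 0.20 SE, limma adjusted p = 0.0531). Il17c, an epithelial ligand of Il17re, reached 1.26 FPKM in bleomycin 3 and held 18 reads over the bleomycin group, 8 over nitrate and 2 over control. Il17b stayed at or below 0.798 FPKM and Il25, a ligand tied to type 2 responses, at or below 0.256.

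**Figure D3:**
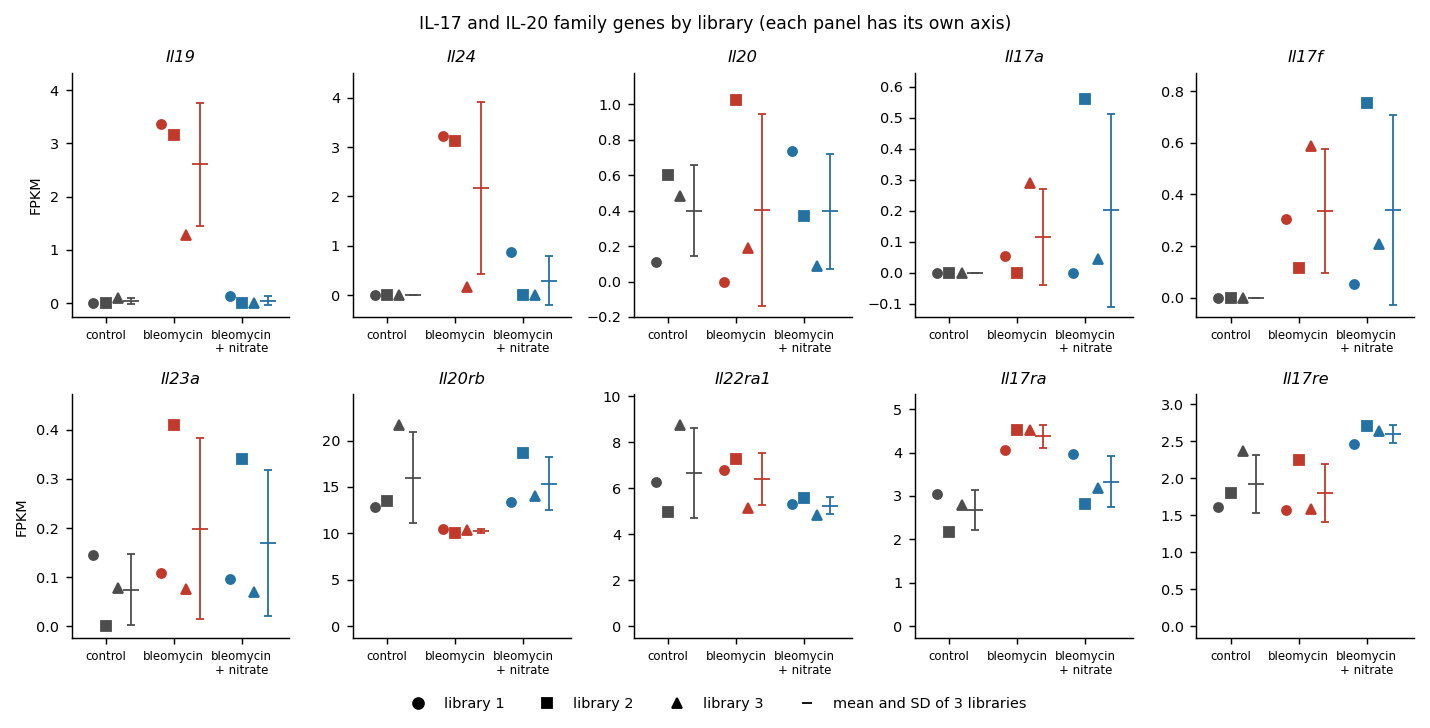
FPKM of the 10 genes in each library (points, colours for groups and shapes for libraries) with the mean and SD of 3 libraries beside them, each panel on its own axis. Il19 is high in all bleomycin libraries and Il24 in bleomycin 1 and 2, Il17a and Il17f are highest in bleomycin 3 and nitrate 2, and Il20rb is lowest in bleomycin.

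Il17ra, the receptor chain common to most IL-17 cytokines, was highest in bleomycin skin (ENSMUSG00000002897, chromosome 6, 120463247 to 120487559). It stood at 3.05, 2.16 and 2.80 FPKM in control 1, 2 and 3, at 4.06, 4.53 and 4.53 in bleomycin 1, 2 and 3, and at 3.98, 2.82 and 3.19 in nitrate 1, 2 and 3. Every bleomycin library lay above every other library, with nitrate 1 just below bleomycin 1, and control and nitrate overlapped. The rise with bleomycin passed limma's test narrowly (0.56 ± 0.14 SE, adjusted p = 0.0475). The lower value with nitrate than with bleomycin did not pass (-0.32 ± 0.14, 95% interval -0.64 to 0.00283, adjusted p = 0.282).

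The call of Il17ra was lost in 13 of 19 alternatives, with adjusted p from 0.0398 to 0.161 over all of them and the same sign in each. Leaving out any 1 control or bleomycin library ended it, as did leaving out nitrate 3, the replicate block (adjusted p = 0.0657), quantile normalization (0.0517), an added 0.1 in place of 1 FPKM (0.0511), no filter (0.104), the hair follicle covariate (0.0817) and leaving out both control 1 and bleomycin 1 (0.127).

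Il17re, the chain that with Il17ra receives IL-17C on epithelial cells, was highest in nitrate skin (ENSMUSG00000043088, chromosome 6, 113458484 to 113470758). It stood at 1.62, 1.79 and 2.36 FPKM in control 1, 2 and 3, at 1.57, 2.25 and 1.58 in bleomycin 1, 2 and 3, and at 2.46, 2.71 and 2.63 in nitrate 1, 2 and 3. Every nitrate library lay above every other library, and control and bleomycin overlapped. Neither difference passed (0.37 ± 0.15 SE, limma adjusted p = 0.234 for nitrate minus bleomycin; 0.31 ± 0.15, adjusted p = 0.185 for nitrate minus control). Between bleomycin and control the difference was -0.06, with a 95% interval of -0.40 to 0.27.

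Among the 5 IL-17 receptor genes, 4 were tested, and Il17ra alone was called, higher with bleomycin (median difference 0.11 against 0.01 over all genes). Of all tested genes 4.74% were called higher in that comparison. Il17rc, which pairs with Il17ra for IL-17A and IL-17F, was the most abundant, with 35.0 ± 3.02 FPKM in control, 43.0 ± 5.99 in bleomycin and 33.9 ± 2.26 in nitrate (SD, n = 3; adjusted p = 0.209 for bleomycin minus control). Il17rd had 2.08 ± 0.348 FPKM in control and 1.56 ± 0.365 in bleomycin (adjusted p = 0.292). Il17rb, the chain for IL-25, stayed at or below 0.825 FPKM and was not tested. In control skin Il17ra, Il17rd and Il17re had means within 1 FPKM of each other, and their SDs overlapped.

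Over the 10 genes, 5 passed the filter (Il19, Il17ra, Il17re, Il20rb and Il22ra1), Il19 of them through the bleomycin group alone. Between bleomycin and control 2 of the 5 were called, both higher, where 8.43% of all tested genes were called, 4.74% higher and 3.69% lower. These 2 calls are those of Il19, whose direction the filter fixed, and Il17ra, which did not hold when any 1 control or bleomycin library was left out. Between nitrate and bleomycin none of the 5 was called by limma, as for 0 of 14645 genes (0.0%). At an unadjusted p under 0.05 there were 2624 genes (17.9%), and Il19, whose direction the filter fixed here too, Il20rb and Il17re were among them. By voom, 0 genes were called (0.0%). Between nitrate and control none of the 5 was called, where 8.53% of genes were, 3.63% higher and 4.9% lower, and Il19, Il17ra, Il17re, Il22ra1 and Il20rb all had an unadjusted p above 0.05.

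All 10 genes were also counted by whether the libraries of the groups overlap. In every bleomycin library 4 were higher than in every control library (Il19, Il17ra, and Il24 and Il17f against control values of 0). In the same comparison 1 was lower (Il20rb). Over the 32197 genes above 0 in at least 1 library, 21.2% did not overlap, 11.1% being higher and 10.1% lower. Between nitrate and bleomycin 2 were higher with nitrate (Il20rb and Il17re) and 2 lower (Il19 and Il17ra), where 6.47% and 7.65% of all these genes were, 14.1% in all. Between nitrate and control 2 were higher (Il17re, and Il17f against control values of 0) and 0 lower, where 10.5% and 9.92% were, 20.5% in all. Each pair of these comparisons shares the libraries of 1 group.

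**Figure D4:**
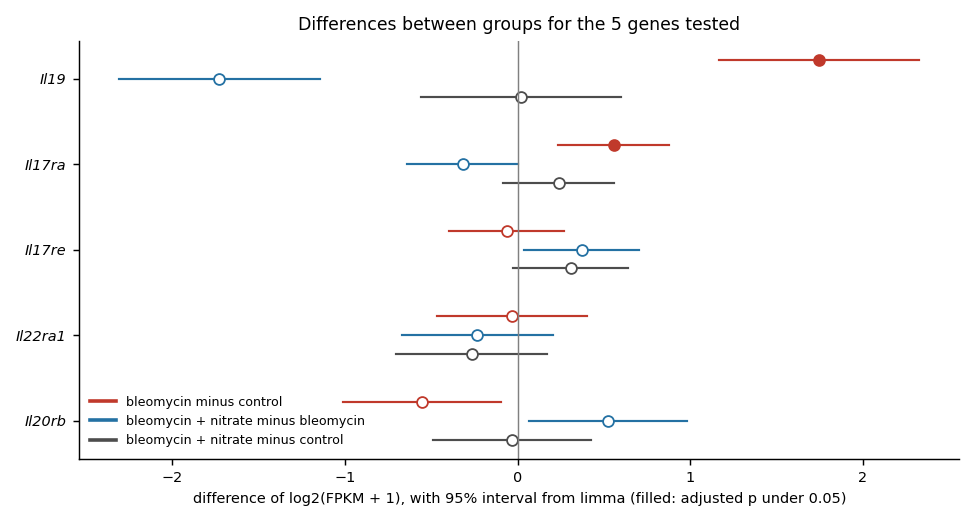
Differences of log2(FPKM + 1) between groups with 95% intervals from limma for the 5 genes that passed the filter, with filled points where the adjusted p was under 0.05. Il19 and Il17ra are above 0 with bleomycin against control, and Il20rb lies on opposite sides of 0 in the first and second comparison, with no filled point.

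The genes whose course over the 9 libraries was nearest to that of Il19, by the root-mean-square difference of centred log2(FPKM + 1), were Crabp1 (0.25), which encodes a retinoic acid carrier, Pla1a (0.25), a phospholipase gene, and Tnfrsf9 (0.26), a co-stimulatory receptor gene. Il19 itself had an SD of 0.91 on this scale. Nearest to Il17ra, with an SD of 0.28, were Tpd52 (0.07), Prelid1 (0.07) and the cytoplasmic actin gene Actg1 (0.08).

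Relays of the receptors rose in part. Of 12 genes of IL-17 signalling relays and brakes, all tested, 3 rose and 0 fell with bleomycin, with a median difference of 0.19 against 0.01 over all genes. Over all tested genes 4.74% were called higher and 3.69% lower with bleomycin, the shares to set beside the count of each list below. Nfkbiz, a nuclear cofactor of NF-kappa-B that IL-17 induces, stood at 5.73, 3.48 and 4.88 FPKM in control 1, 2 and 3, at 31.5, 13.2 and 22.2 in bleomycin 1, 2 and 3, and at 9.05, 17.2 and 9.72 in nitrate 1, 2 and 3. Bleomycin and nitrate overlapped, and both lay above control. Nfkbiz rose with bleomycin (1.97 ± 0.33 SE, limma adjusted p = 0.0130), and its call was lost without control 2 and without both control 1 and bleomycin 1 (0.0763).

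Cebpb, a transcription factor gene downstream of IL-17 (0.77 ± 0.16 SE, adjusted p = 0.0281), and Zc3h12a, which encodes an RNase that restrains IL-17 signals (2.03 ± 0.52, adjusted p = 0.0487), were the others, and they were lost in 8 and 11 of 19 alternatives. Tnfaip3, a brake on NF-kappa-B, had 3.69 ± 0.298 FPKM in control, 9.64 ± 3.71 in bleomycin and 3.92 ± 1.59 in nitrate and did not pass (adjusted p = 0.0539). Cebpd, a relative of Cebpb, was lower with nitrate than in control (-1.33, adjusted p = 0.0130). It was the only 1 of the 12 called there, and its call was lost without control 2 and with the hair follicle covariate (0.0631).

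Of 7 JAK-STAT genes that the IL-20 family uses, 2 rose and 0 fell with bleomycin (median 0.48). Socs3, the STAT3-induced inhibitor of cytokine receptors, stood at 14.2, 8.76 and 8.18 FPKM in control 1, 2 and 3, at 64.6, 34.0 and 55.9 in bleomycin 1, 2 and 3, and at 14.2, 11.8 and 9.0 in nitrate 1, 2 and 3. Every bleomycin library lay above every other library. Socs3 rose with bleomycin (2.19 ± 0.29 SE, limma adjusted p = 0.00603), in all 19 alternatives too, and its lower value with nitrate did not pass (-2.02 ± 0.29, adjusted p = 0.0619). Socs1, a related inhibitor, was the other gene that rose (0.69 ± 0.17, adjusted p = 0.0432), a call lost in 11 of 19 alternatives. Jak2, a kinase gene of cytokine receptors, did not pass (adjusted p = 0.176).

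Most of the tested targets of IL-17 rose with bleomycin. Of 17 such genes 12 were tested, and 10 rose and 0 fell, with a median difference of 2.37 against 0.01 over all genes. For Cxcl1, Cxcl2, Cxcl5 and Il6 among them, bleomycin libraries alone reached the filter, which fixed the direction of these 4 against control and against nitrate. Of the other 8, 6 rose and 0 fell (median 2.63). Ccl20 and Defb4 of these 8 passed the filter with 0 control libraries at 1 FPKM, so it favoured a value above control in them too. Cxcl1, a chemokine gene for neutrophils, stood at 0.977, 0.444 and 0.153 FPKM in control 1, 2 and 3, at 7.20, 3.66 and 13.5 in bleomycin 1, 2 and 3, and at 0.465, 0.728 and 0.308 in nitrate 1, 2 and 3 (2.46 ± 0.38 SE, limma adjusted p = 0.010 for bleomycin minus control). Cxcl2 and Cxcl5, chemokine genes that draw neutrophils too, also rose (1.53 ± 0.24, adjusted p = 0.0111, and 3.08 ± 0.36, adjusted p = 0.00474). Each library of bleomycin lay above each other library in these 3 genes. The filter fixed this as well, because only the 3 bleomycin libraries reached 1 FPKM in them. Lcn2, an iron-binding antimicrobial protein gene, had 1.73 ± 1.04 FPKM in control, 21.9 ± 12.6 in bleomycin and 4.96 ± 3.55 in nitrate (SD, n = 3), and rose with bleomycin (2.98, adjusted p = 0.0257), a call lost in 7 of 19 alternatives.

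Between nitrate and bleomycin none of the 12 targets passed. Of the 8 that did not pass the filter through bleomycin libraries alone, all estimates lay below 0, with a median of -1.71 against -0.0029 over all genes. Defb4 of these 8 passed it with 3 bleomycin libraries and 1 nitrate library, so the filter favoured a lower value with nitrate in this gene. Ccl20, which draws CCR6-bearing lymphocytes, stayed higher than control with nitrate, with 0.113 ± 0.0470 FPKM in control, 1.47 ± 0.590 in bleomycin and 1.25 ± 0.450 in nitrate (SD, n = 3). It was the only 1 of the 12 called between nitrate and control (0.99, limma adjusted p = 0.0353), and that call was lost in 11 of 19 alternatives. Ccl20 passed the filter through 2 bleomycin and 2 nitrate libraries and 0 control libraries, so the filter favoured a value above control.

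S100a8 and S100a9, which are at once IL-17 targets and abundant neutrophil genes, were highest in bleomycin 1. S100a9 stood at 9.52, 0.228 and 1.65 FPKM in control 1, 2 and 3, at 1792, 232 and 258 in bleomycin 1, 2 and 3, and at 39.6, 87.6 and 9.77 in nitrate 1, 2 and 3. It rose with bleomycin (7.20 ± 1.14 SE, limma adjusted p = 0.0124), a call lost by voom (adjusted p = 0.119).

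Keratinocyte genes that IL-20 and IL-22 induce also rose. Of 7 such genes 6 were tested, and 5 rose and 0 fell with bleomycin, with a median difference of 3.29. Krt16, a keratin of wounded and thickened epidermis, stood at 37.3, 3.08 and 10.5 FPKM in control 1, 2 and 3, at 1364, 1273 and 347 in bleomycin 1, 2 and 3, and at 269, 69.7 and 34.9 in nitrate 1, 2 and 3 (6.12 ± 0.99 SE, limma adjusted p = 0.0120 for bleomycin minus control). Krt6a, a keratin of the same state, rose as well (4.25 ± 0.68, adjusted p = 0.0112), and so did Hbegf, an epidermal growth factor gene (2.32 ± 0.45, adjusted p = 0.0204). Bleomycin 3, the library of its group lowest in Il19 and Il24, was also its lowest in Krt16, and nitrate 1, the nitrate library with reads of both, was the highest of its group. Krt6a, Krt6b and Krt17 of this list had the same lowest and highest libraries. Of the bleomycin libraries, Hbegf was lowest in bleomycin 2, S100a7a highest in bleomycin 3, and Reg3g, not tested, at 0 in bleomycin 1. A link of these orders to Il19 or Il24 was not tested.

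Krt17, a keratin of wounded epidermis and of the hair follicle, did not share the order of the group means of Krt16. Its mean was 751 ± 241 FPKM with bleomycin and 956 ± 280 with nitrate, where Krt16 had 995 ± 563 and 124 ± 126 (SD, n = 3). It stood at 143, 178 and 314 FPKM in control 1, 2 and 3, at 624, 1029 and 599.9 in bleomycin 1, 2 and 3, and at 1158, 637 and 1073 in nitrate 1, 2 and 3, and was higher than control in both groups (1.86 ± 0.36 SE, limma adjusted p = 0.0203 with bleomycin; 2.20 ± 0.36, adjusted p = 0.0176 with nitrate). The call with nitrate was lost with the hair follicle covariate (adjusted p = 0.127). IL-22 is known to lower the differentiation genes of human keratinocytes. Of 5 such genes here 2 rose and 0 fell with bleomycin, namely Flg (2.65 ± 0.54, adjusted p = 0.0225) and Krt1 (2.48 ± 0.57, adjusted p = 0.0353). These calls were lost in 7 and 9 of 19 alternatives, and a link of these genes to IL-22 was not tested. Ivl and Krt10 did not pass (adjusted p = 0.0821 and 0.317).

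Without both control 1 and bleomycin 1, 18 of the 23 calls in these pathway lists with bleomycin, those of the 10 genes aside, were lost, and without control 2, 16 of 23 were. Cxcl2, Cxcl5 and Socs3 were called in all 19 alternatives. For Cxcl2 and Cxcl5 bleomycin libraries alone reached the filter, which fixed their direction wherever it was kept.

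**Figure D5:**
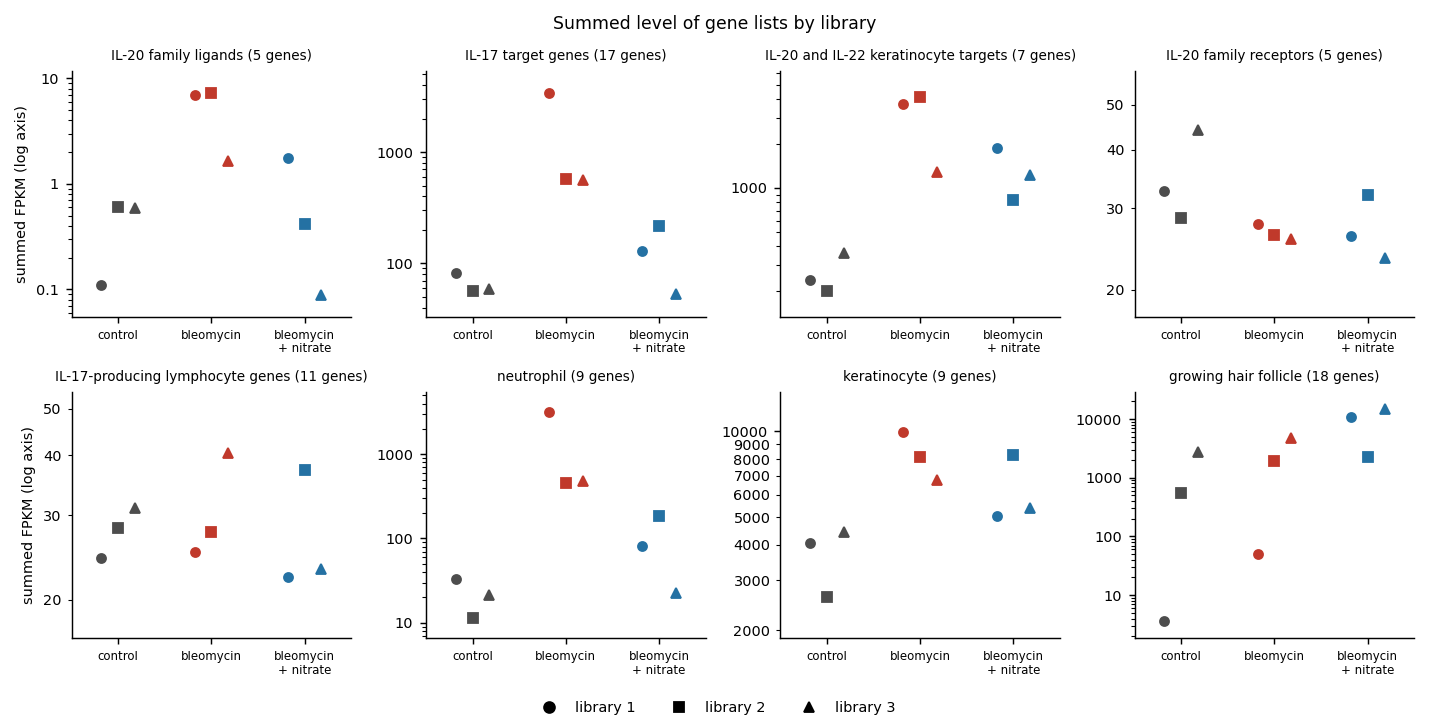
Summed FPKM of 8 gene lists in each library on log axes, with colours for groups and shapes for libraries. Ligands, targets and neutrophil genes are high in bleomycin, but bleomycin 3 lies below nitrate 1 in IL-20 family ligands and in keratinocyte targets. The IL-17-producing lymphocyte list is highest in bleomycin 3 and nitrate 2, and hair follicle genes differ widely within each group.

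Markers of several cell types moved with these groups, and their part in the results above was not tested. Beside the counts that follow, 4.74% of all tested genes were called higher and 3.69% lower with bleomycin. The summed level of 9 neutrophil genes was 11.3 to 33.2 FPKM in control, 456 to 3207 in bleomycin and 22.7 to 183.7 in nitrate, and S100a8 and S100a9 made up nearly all of it in bleomycin. Of the 9, 5 were tested and all 5 were called higher with bleomycin, among them Cxcr2, a chemokine receptor of neutrophils (2.66, limma adjusted p = 0.00387), and Clec4d, a lectin gene of myeloid cells (2.09, adjusted p = 0.00435). Ly6g, which defines mouse neutrophils, was not tested, with at most 0.174 FPKM and 0 in 7 of the 9 libraries. Of 9 keratinocyte genes the sum was 2611 to 4425 FPKM in control, 6769 to 9923 in bleomycin and 5061 to 8241 in nitrate, with 3 called higher and 1, Krt15, lower with bleomycin. Of 8 T cell genes the sum was 12.5 to 16.0 FPKM in control, 34.7 to 48.2 in bleomycin and 24.9 to 29.1 in nitrate. Of 11 macrophage genes it was 464 to 684 FPKM in control, 1065 to 1948 in bleomycin and 339 to 882 in nitrate, with 1 called higher with bleomycin. Of 10 immediate early genes, which also answer to the handling of a sample, it was 264 to 309 FPKM in control, 387 to 1371 in bleomycin and 377 to 386 in nitrate, with 3 called higher with bleomycin. Nfkbiz and Socs3 were highest in bleomycin 1, as was that sum.

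Other marker lists were lower in both bleomycin groups than in control, as Il20ra was. The sum of 7 fibroblast genes was 4719 to 6081 FPKM in control, 1645 to 2582 in bleomycin and 1581 to 2390 in nitrate, and 3 of the 7, the collagen genes Col1a1, Col1a2 and Col3a1, fell with bleomycin and were lower with nitrate than in control. That of 5 endothelial genes was 114 to 133 FPKM in control, 70.8 to 85.8 in bleomycin and 47.8 to 84.7 in nitrate, with 2 called lower with bleomycin and 4 with nitrate. That of 5 fat cell genes was 343 to 559.9 FPKM in control, 208 to 241 in bleomycin and 59.8 to 214 in nitrate, with 0 called with bleomycin and 4 called lower with nitrate. That of 5 skeletal muscle genes was 11246 to 16642 FPKM in control, 2277 to 10225 in bleomycin and 1787 to 7634 in nitrate, with 0 and 1 called lower. Of all tested genes 3.69% were called lower with bleomycin and 4.9% lower with nitrate than in control.

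Genes of IL-17-producing lymphocytes were followed as a list of 11, of which 8 were tested. Their sum was 24.4 to 31.1 FPKM in control, 25.2 to 40.5 in bleomycin and 22.3 to 37.3 in nitrate, and 1 rose with bleomycin, Il7r, the receptor of a T cell survival factor (1.49, limma adjusted p = 0.0187). Bleomycin 3 and nitrate 2, the libraries with the most Il17a and Il17f reads of their groups, were highest in this list in their groups. Cd163l1, which marks IL-17-producing gamma-delta T cells of mouse skin, stood at 0.35, 0.749 and 3.56 FPKM in bleomycin 1, 2 and 3 and at 0.354, 1.03 and 0.437 in nitrate 1, 2 and 3. Blk, a kinase gene of the same cells and of B cells, stood at 0.591, 0.963 and 1.74 FPKM in bleomycin and at 0.242, 1.5 and 1.07 in nitrate.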

How the data were processed

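Skin RNA of 9 libraries was analysed, grouped by sample title, in 3 comparisons (bleomycin minus control, nitrate minus bleomycin, nitrate minus control). Libraries were made from total RNA with a SMARTer mRNA kit, per the labels' protocols. The authors deposited 1 table of FPKM per gene and library. Per the submitters' processing notes the build was mm10, while aligner and counter are not given in the sources used here. Multiplied by gene length, 100% of values above 0 were whole multiples of a library's smallest step (tolerance 0.01), which gave whole reads per gene. A count of 0 allows up to 3 reads, and intervals and floors cover counting error only. The authors' library size was 0.916 to 1.09 times these reads, by a scaling that no source used here describes, and levels depend on it.

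Genes with at least 1 FPKM in at least 3 libraries were fitted on log2(FPKM + 1) with limma 3.58.1 (R 4.3.3), 3 group means, eBayes with trend and robust, two-sided, with calls below 0.05 after Benjamini-Hochberg adjustment. Leaving genes tested through bleomycin alone out of target counts, and leaving single libraries out of the lower bounds, were chosen after seeing the data. The added 1 makes differences of low genes smaller than log2 ratios. The fit was tested on simulated data. Alternatives were added values of 0.1 and 0.5, no filter, quantile normalization, scaling by median ratios, a fit of only the groups compared, the replicate number as a block, limma-voom on recovered reads (at least 10 reads in at least 3 libraries, 17585 genes), leaving out each library, leaving out both control 1 and bleomycin 1, and the mean of 18 hair follicle genes as a covariate. The 10 genes, the gene lists and the exclusion of those libraries were chosen with earlier results of these data known. All 10 genes and all ligands and receptors of their families are named, and of each other pathway list the up to 4 tested genes with the smallest p for bleomycin minus control. For each of the 10 that was called, the 3 genes most like it are named. 1 gene that this rule names is not reported here. Lcn2, Ccl20, Cebpd, S100a8, Il6, Il7r, Cd163l1, Blk, Ly6g, Cxcr2, Clec4d, Col1a1, Col1a2, Col3a1, Krt14, Krt15, Defb4, Krt6b, S100a7a and Reg3g and the genes beside Il24 were named after their values were seen. Motifs were searched in RefSeq promoters. Plots used matplotlib 3.10.9 and Python 3.11.15.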

Additional observations from a re-analysis of the deposited data

How the results depend on the processing

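Of 309 values of the 10 genes under alternatives, 275 were counted as the same. For genes that passed the filter, that meant the same direction and side of the threshold. For the others it meant a difference moved by less than the larger SD of the groups compared. Part of this count was fixed in advance, as differences of those others could not move with no filter. The replicate block, the fit of only the groups compared and leaving out a library outside the comparison also left estimates unchanged. In these only the adjusted p could change. Between bleomycin and control, 1234 genes and 2 of the 10 were called. No filter gave 676 genes and 1 of the 10, leaving out both control 1 and bleomycin 1 gave 137 and 0. The hair follicle covariate, quantile normalization, the replicate block and an added 0.1 each gave 1 of the 10. Leaving out 1 library gave 334 (control 2) to 1539 (nitrate 2) genes and 1 to 2 of the 10, with at most 695 genes where it was a control or bleomycin library. Between nitrate and bleomycin, 0 genes became 10 with the replicate block and 0 to 37 (without nitrate 1) when 1 library was left out, with 0 to 1 of the 10, Il19 without bleomycin 3. Between nitrate and control, 1249 genes became 9 with the hair follicle covariate, 294 with no filter, 306 with only the groups compared, 23 without both libraries, and 45 (control 2) to 2882 (nitrate 2) when 1 library was left out, with 0 of the 10 called. Some small differences changed sign. Il19 (nitrate minus control, 0.02) was -0.10 with quantile normalization, -0.011 by voom, -0.0049 without both libraries and -0.046 to 0.064 when 1 library was left out. Il20rb (nitrate minus control, -0.03) ranged from -0.17 to 0.20, Il17re (bleomycin minus control, -0.06) from -0.17 to 0.043 and Il22ra1 (-0.03) from -0.20 to 0.16 when 1 library was left out. The cause of these changes was not tested beyond the fewer samples or the other genes in each fit. Replicate numbers come from the sample titles, and nothing used here states a pairing by number. The deviations of same-numbered libraries from their group means correlated from -0.39 to 0.52 across genes. Those of differently numbered libraries ran from -0.57 (control 3 and bleomycin 1) to 0.58 (bleomycin 1 and nitrate 2). These values do not settle whether libraries were paired. The replicate block ended the call of Il17ra (adjusted p = 0.0657), kept that of Il19 and moved no count between bleomycin and control by over 1.5 times apart from that of the 10 genes. At this depth the reads of Il17a, Il17f, Il20, Il23a and Il22 limit what could be detected.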

Other observations

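Mast cell genes, a cell type not described above, were higher with bleomycin in 5 of 7 tested members and higher with nitrate than in control in 2 of 7, by limma's adjusted p, with summed levels of 57.5 to 106 FPKM in control, 177 to 234 in bleomycin and 94.7 to 185 in nitrate. Of all tested genes 4.74% were called higher with bleomycin and 3.63% higher with nitrate than in control. Pigment cell genes had estimates above 0 in 5 of 5 members in both comparisons with control, and 0 passed with bleomycin and 2 with nitrate. Paqr8, a membrane receptor gene near Il17f, had 3.42 ± 1.18 FPKM in control, 4.53 ± 1.67 in bleomycin and 8.12 ± 3.27 in nitrate (SD, n = 3), and was not compared further.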
